A study of Mus musculus with 6 samples.

Results

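Smooth muscle cells and pericytes are the mural cells that wrap blood vessels. Their identity in RNA is read here from 10 genes: a contractile group of 7 (Acta2, Actg2, Tagln, Cnn1, Myh11, Myl9 and Des) and a pericyte group of 3 (Rgs5, Cspg4 and Mcam). The 10 genes were taken by name from the 55385 mouse gene rows of a bulk RNA-seq count table, and all 10 were among the 18504 genes with enough counts to be tested. The libraries came from PDVC57, a cell line of mouse skin carcinoma that descends from transformed keratinocytes. The labels give 3 libraries the genotype Sox2 KO and 3 the genotype Sox2 overexpression, and the series' design text places the cells in grafted tumours from which cancer cells low or high in Sox2 were isolated. Both groups therefore share the parent line and growth in grafts. Whether any tumour gave cells of both groups is not stated. The number of clones, the construct, the promoter, the host strain and age, the time in the graft and the gate used for isolation are not given in the sources used here. No label says whether replicates came from separate tumours, so p-values measure the spread between these libraries, which may be technical.

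In mural cells, actin and myosin filaments slide past each other to narrow the vessel. Acta2 and Actg2 encode the smooth muscle actins, Myh11 the smooth muscle myosin heavy chain and Myl9 a regulatory myosin light chain, while Tagln and Cnn1 encode actin-binding proteins and Des the intermediate filament desmin. Serum response factor (SRF), with coactivators of the myocardin family, binds CArG boxes in the control regions of many of these genes. Pericytes of small vessels carry less contractile protein and are known by Rgs5, a regulator of G protein signalling, Cspg4, the NG2 proteoglycan, and Mcam, the adhesion molecule CD146. None of the 10 is strictly private to mural cells: activated fibroblasts can make Acta2 and Tagln, skeletal muscle makes Des, and some carcinoma and endothelial cells make Mcam.

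Promoter sequence was examined because 9 of these genes fell together, as given further on. The RefSeq table (GRCm38.p6) holds 300 bases, from 250 before to 50 after the start of transcription, for 7 of the 10 genes, and Actg2, Tagln and Myh11 are not among them. The windows of 4 genes are shown 5′ to 3′ on the gene's own strand: Acta2, the most abundant, Myl9, with the largest fall of the contractile group, Rgs5, with the largest fall of all, and Mcam, the gene that did not pass the test. Capitals mark matches to the CArG box (a pair of C, a run of A or T, a pair of G) with up to 1 mismatch, and to the MCAT element CATTCC on either strand. The windows lie at chr19:34255324-34255623 on the minus strand for Acta2, and on the plus strand at chr2:156775214-156775513 for Myl9, chr1:169655251-169655550 for Rgs5 and chr9:44134408-44134707 for Mcam.
Acta2: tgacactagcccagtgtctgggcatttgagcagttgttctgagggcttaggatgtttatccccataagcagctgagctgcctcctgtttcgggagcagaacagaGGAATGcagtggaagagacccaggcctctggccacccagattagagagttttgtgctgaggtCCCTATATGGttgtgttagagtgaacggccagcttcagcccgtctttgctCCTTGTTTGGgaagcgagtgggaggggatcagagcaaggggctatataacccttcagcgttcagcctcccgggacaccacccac
Myl9: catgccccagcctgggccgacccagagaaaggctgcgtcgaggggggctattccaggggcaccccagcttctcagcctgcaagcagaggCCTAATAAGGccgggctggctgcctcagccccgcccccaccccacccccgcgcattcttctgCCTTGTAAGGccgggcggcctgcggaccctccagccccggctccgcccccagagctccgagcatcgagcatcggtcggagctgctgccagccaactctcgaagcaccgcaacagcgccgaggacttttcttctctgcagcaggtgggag
Rgs5: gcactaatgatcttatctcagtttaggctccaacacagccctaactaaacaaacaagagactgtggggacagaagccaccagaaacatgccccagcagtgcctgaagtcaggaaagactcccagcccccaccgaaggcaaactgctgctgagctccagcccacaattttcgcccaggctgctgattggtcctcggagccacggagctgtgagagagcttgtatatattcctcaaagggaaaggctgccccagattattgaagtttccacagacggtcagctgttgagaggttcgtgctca
Mcam: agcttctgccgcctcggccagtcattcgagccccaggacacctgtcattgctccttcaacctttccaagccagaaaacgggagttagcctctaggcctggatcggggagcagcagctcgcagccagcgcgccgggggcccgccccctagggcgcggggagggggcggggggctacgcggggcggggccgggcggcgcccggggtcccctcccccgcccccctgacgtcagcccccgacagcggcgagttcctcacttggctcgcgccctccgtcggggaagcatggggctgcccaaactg
The Myl9 window held the 1 match to the CArG box without a mismatch among the 7 windows, CCTAATAAGG, which lies 161 to 152 bases before the start. Such a match occurs in 1.63% of the 32851 promoter windows of the RefSeq table. A further match with 1 mismatch, CCTTGTAAGG, lies 99 to 90 bases before the start of Myl9. Acta2 had a pair of matches with 1 mismatch, CCCTATATGG at 84 to 75 bases and CCTTGTTTGG at 34 to 25 bases before the start. Cspg4, not printed, had 2 overlapping matches with 1 mismatch. In all, 3 of 7 windows held a match with up to 1 mismatch, and 21.1% of all windows do. Acta2 was also the 1 of 7 with an MCAT element, read as GGAATG at 146 to 141 bases before the start and not overlapping the CArG matches, where 14.7% of all windows hold one. All distances count from the RefSeq start. In the GENCODE annotation used for gene positions, Acta2 begins upstream of that start, at 34255590 on the minus strand. The Acta2 matches therefore lie inside the GENCODE span of the gene. Mcam, too, begins upstream of its RefSeq start there, at 44134469. These matches are letters in a short window and were not tested as sites.

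Each library held 31247976 to 38543221 counts over mouse genes. Levels are given as CPM, counts scaled to a common library size. Sox2 separated the groups as labelled, at 1.08 ± 0.377 CPM in the knockout libraries and 103 ± 24.9 CPM in the overexpression libraries (SD, n = 3 each). Of 25 epithelial markers, all tested, 18 rose with overexpression, 0 fell and 7 did not pass, beside 13.6% higher and 18.0% lower over all tested genes. Krt8, Itgb4, Pkp1, Cldn4 and Cldn7 did not pass in every fit that left out 1 library (edgeR adjusted p up to 0.111, for Itgb4). Among the 7, Krt5, Dsp, Ovol1 and Col17a1 rose past the threshold in at least 1 such fit. The 25 markers had a median log2 fold change of 1.14, opposite in sign to the median of the smooth muscle and pericyte genes. A scaling of the libraries to this list, run as an alternative, removes the rise of the list as a whole by construction. Their summed level was 7778 to 12340 CPM in the knockout libraries and 20120 to 25940 CPM in the overexpression libraries, and its part in the results that follow was not tested. Markers of other cells differed between the groups as well. The summed level of 12 fibroblast markers was 56260 to 85050 CPM in the knockout libraries and 258 to 406 CPM in the overexpression libraries, with 12 of 12 lower past the threshold, beside 18.0% of all tested genes. Whether this RNA came from host fibroblasts or from carcinoma cells was not tested. In bulk RNA, fewer cells of a type and less RNA per cell cannot be told apart.

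Of the 10 smooth muscle and pericyte genes, 9 fell with overexpression and 0 rose, with an adjusted p under 0.05 in the edgeR quasi-likelihood test over all genes. Among all 18504 tested genes, 18.0% were lower and 13.6% higher past the same threshold, 31.6% in either direction. For the same 9 genes every overexpression library lay below every knockout library, which held for 26.5% of tested genes (50.9% did not overlap in either direction). The median log2 fold change of the 10 genes was -4.86, and that of all tested genes was -0.016. Mcam was the gene that did not pass. Recomputed under 13 alternatives, the 9 calls held each time.

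**Figure D1:**
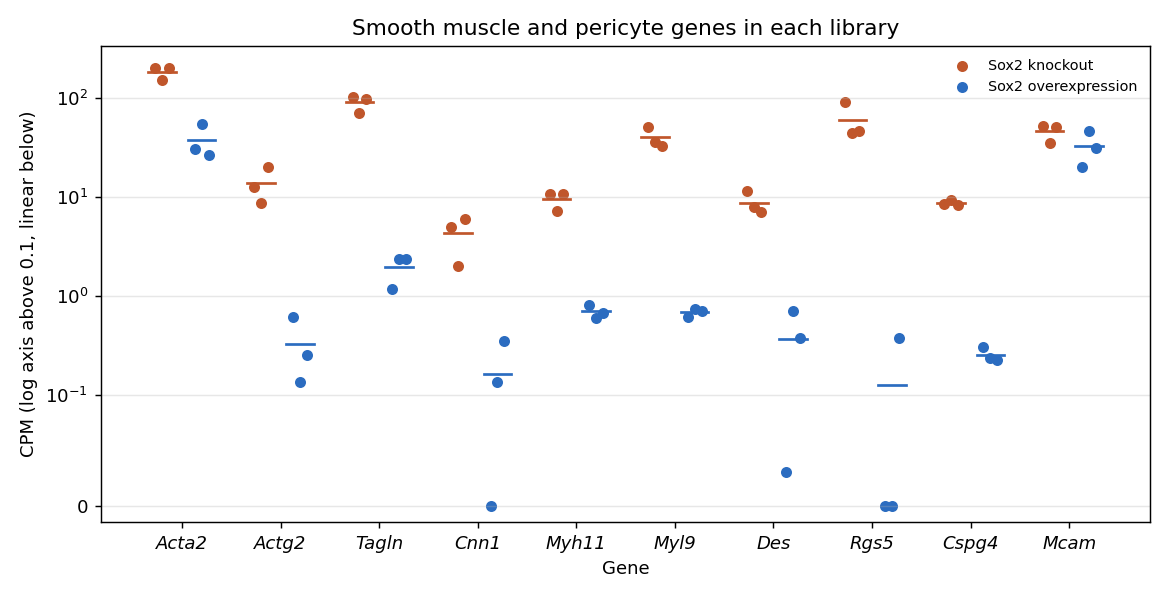
CPM of each gene (vertical axis, logarithmic above 0.1 and linear below) in the 3 Sox2 knockout and 3 Sox2 overexpression libraries. Points are libraries in the order of replicates 1 to 3 and bars are group means. Acta2 stayed between 26.1 and 54.8 CPM with overexpression, while Rgs5 was at 0 in 2 libraries and Mcam overlapped between the groups.

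Acta2 (ENSMUSG00000035783, chromosome 19, 34241090 to 34255590, minus strand, GRCm38) was the most abundant of the 10 genes per kilobase of exon in both groups. Its levels were 198 CPM, 149 CPM and 199.5 CPM in knockout replicates 1, 2 and 3, and 30.02 CPM, 54.8 CPM and 26.1 CPM in overexpression replicates 1, 2 and 3. The groups did not overlap, and the lowest knockout library stood well above the highest overexpression library. The group means were 182 ± 29.0 CPM and 37.0 ± 15.6 CPM (SD, n = 3 each), so Acta2 was 4.93-fold lower with overexpression. The log2 fold change was -2.30 ± 0.29 (SE; edgeR, adjusted p = 0.000437). This was the smallest change among the 9 genes that fell. The overexpression libraries still held 985 to 1623 Acta2 counts.

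Tagln (ENSMUSG00000032085, chromosome 9, 45929619 to 45936058, minus strand), which encodes transgelin (SM22), an early marker of smooth muscle, had 101 CPM, 69.4 CPM and 97.7 CPM in knockout replicates 1, 2 and 3. With overexpression it had 1.19 CPM, 2.37 CPM and 2.35 CPM. All 3 overexpression libraries were thus low, and the mean was 45.5-fold lower (log2 fold change -5.50, standard error 0.31, edgeR adjusted p = 4.19e-06). An antisense gene, Gm48529, overlaps 1241 bases of Tagln exon on the other strand, and the strand setting of the counting is not given in the sources used here. The protein-coding gene Pcsk7 overlaps 108 bases on that strand, with 1052 to 1291 counts in the knockout libraries and 961 to 1141 in the overexpression libraries. Of the 31-base words of the Tagln transcripts, 62.2% occur in transcripts of another gene when both strands are read. Gm48529 had 97 to 187 counts in the knockout libraries and 56 to 104 in the overexpression libraries, against 2102 to 3570 and 39 to 93 for Tagln, so the overexpression counts of Tagln are uncertain in size.

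Myl9 (ENSMUSG00000067818, chromosome 2, 156775420 to 156781658, plus strand) had the largest change of the contractile group. It stood at 51.1 CPM, 35.7 CPM and 32.8 CPM in knockout replicates 1, 2 and 3 and at 0.609 CPM, 0.743 CPM and 0.707 CPM in the overexpression libraries. The mean was 58.1-fold lower, with a log2 fold change of -5.85 ± 0.26 (SE; edgeR, adjusted p = 1.88e-06). The overexpression libraries, each with 20 to 28 counts, lay close together. Actg2 (ENSMUSG00000059430, chromosome 6, 83512905 to 83536265, minus strand), the actin of visceral smooth muscle, had 12.7 CPM, 8.69 CPM and 20.2 CPM with knockout and 0.609 CPM, 0.135 CPM and 0.253 CPM with overexpression. Its log2 fold change was -5.36 ± 0.55 (SE; edgeR, adjusted p = 0.000133). The overexpression mean of 0.332 CPM rested on 4 to 20 counts a library and was 0.194 CPM without replicate 1.

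The slower markers of mature contractile cells were scarcer. Myh11 (ENSMUSG00000018830, chromosome 16, 14194535 to 14291372, minus strand), the most restricted of the smooth muscle genes, had 10.6 CPM, 7.17 CPM and 10.7 CPM in knockout replicates 1, 2 and 3 and 0.823 CPM, 0.608 CPM and 0.682 CPM with overexpression. It fell by 3.74 on the log2 scale (standard error 0.30, edgeR adjusted p = 3.28e-05). Cnn1 (ENSMUSG00000001349, chromosome 9, 22099216 to 22109630, plus strand), calponin, had 168, 61 and 221 counts with knockout and 0, 4 and 14 counts with overexpression. The second knockout library was low and still above every overexpression library, and the log2 fold change was -4.64 ± 0.84 (SE; edgeR, adjusted p = 0.00318). Its overexpression mean, 0.163 CPM, was 0.0676 CPM without replicate 3. Des (ENSMUSG00000026208, chromosome 1, 75360329 to 75368579, plus strand) had 393, 237 and 255 counts with knockout and 1, 21 and 15 with overexpression. The first overexpression library was the low one, and its fitted log2 difference was -4.56 ± 0.69 (SE; edgeR, adjusted p = 0.00124). The overexpression mean of Des was 0.373 CPM, and 0.205 CPM without replicate 2.

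Rgs5 (ENSMUSG00000026678, chromosome 1, 169655501 to 169695813, plus strand) showed the largest fall of the 10 genes. It had 89.5 CPM, 43.99 CPM and 46.4 CPM in knockout replicates 1, 2 and 3, from 3059, 1332 and 1695 counts. With overexpression, replicates 1 and 2 had 0 counts and replicate 3 had 15. The fitted log2 fold change was -8.67 ± 0.78 (SE; edgeR, adjusted p = 5.8e-05), and the ratio of the means, 475-fold, rested on that 1 overexpression library. Without it, Rgs5 was at least 592-fold lower, taken against 3 counts in a library (0.101 CPM).

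Cspg4 (ENSMUSG00000032911, chromosome 9, 56865033 to 56899870, plus strand) varied least of the 10 genes among the knockout libraries, relative to its level. It had 8.49 CPM, 9.38 CPM and 8.32 CPM in knockout replicates 1, 2 and 3 and 0.305 CPM, 0.236 CPM and 0.227 CPM with overexpression. Both groups were narrow, the mean was 34.1-fold lower, and the log2 fold change was -5.07 ± 0.30 (SE; edgeR, adjusted p = 5.93e-06). Mcam (ENSMUSG00000032135, chromosome 9, 44134469 to 44142727, plus strand) had 51.3 CPM, 34.7 CPM and 50.6 CPM with knockout and 19.8 CPM, 46.01 CPM and 30.9 CPM with overexpression. The second overexpression library lay among the knockout libraries, so the groups overlapped. The log2 fold change of Mcam was -0.50 ± 0.30 (SE), which did not pass the threshold (edgeR, adjusted p = 0.232).

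**Figure D2:**
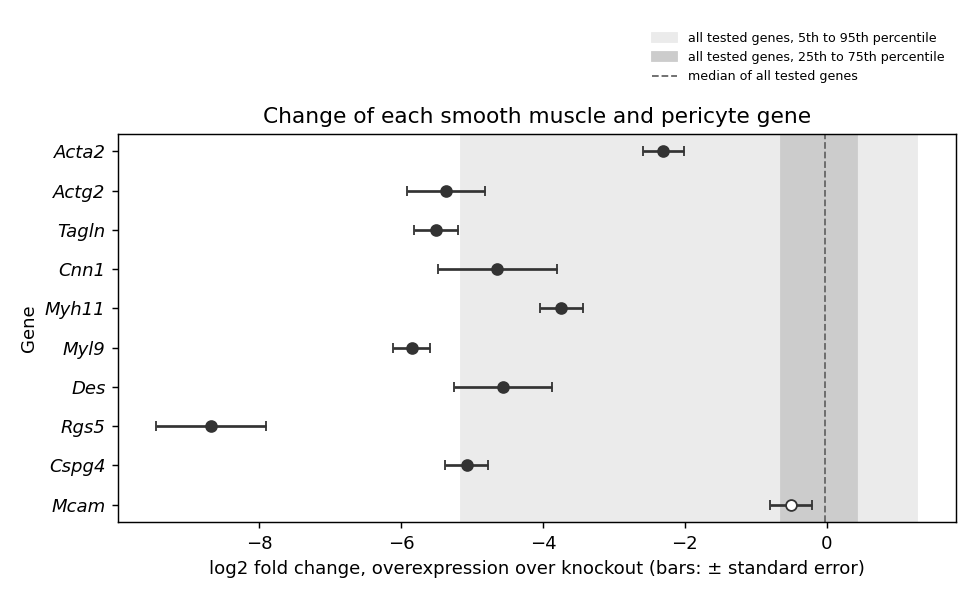
Log2 fold change of each gene, overexpression over knockout, with its standard error. Filled points had an adjusted p under 0.05, the open point (Mcam) did not, the grey bands show the spread of all 18504 tested genes and the dashed line their median. Acta2, at -2.30, lay nearest to the bands' middle among the genes that fell, and Rgs5, at -8.67, farthest.

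The order of the genes by level was read per kilobase of exon, since longer genes collect more counts. With knockout it ran from Acta2 (83.0 CPM per kb) through Tagln (45.0), Myl9 (34.3), Mcam (13.6), Rgs5 (13.2), Actg2 (8.89), Des (2.34), Cnn1 (1.58) and Myh11 (1.25) to Cspg4 (0.732 CPM per kb). The library ranges of Tagln and Myl9 overlapped, as did those of Mcam with Rgs5, of Rgs5 with Actg2, of Des with Cnn1 and of Cnn1 with Myh11. With overexpression Acta2 (16.8 CPM per kb) and Mcam (9.62 CPM per kb) came first, with overlapping ranges, and every other gene was at or below 0.99 CPM per kb. Acta2 and Mcam together held 46.2% to 52.2% of the summed CPM of the 10 genes in the knockout libraries and 91.5% to 95.3% in the overexpression libraries.

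Ratios of a pair of genes within a library do not depend on how libraries are scaled. A total of 11 ratios per kilobase were compared, and an exact two-sided permutation test of 3 against 3 libraries cannot go below p = 0.1. Acta2 over Tagln was 1.77, 1.94 and 1.85 in the knockout libraries and 22.9, 20.99 and 10.07 in the overexpression libraries (exact permutation p = 0.1, 0.138 after Benjamini-Hochberg adjustment). Acta2 over Myl9 was 2.05 to 3.22 with knockout and 19.5 to 39.04 with overexpression, with the same p-values. The Tagln to Myl9 ratio, in contrast, overlapped between the groups, at 1.14 to 1.74 and 1.14 to 1.94 (exact permutation p = 0.4, adjusted 0.4). As the overexpression counts of Tagln are uncertain in size, so are its ratios there. Mcam over Cspg4 was 13.2 to 21.7 with knockout and 231 to 693 with overexpression (exact permutation p = 0.1, adjusted 0.138). Rgs5 over Pdgfrb, a receptor shared by pericytes and fibroblasts, was 0.255 to 0.481 with knockout, 0 in overexpression replicates 1 and 2 and 0.296 in replicate 3.

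The actin family sets Acta2 and Actg2 among the isoforms of other cells. Actb and Actg1 encode the cytoplasmic actins of every cell, Acta1 that of skeletal muscle and Actc1 that of heart muscle. Per kilobase, Actb stood at 758 with knockout and 1166 CPM with overexpression, and Actg1 at 702.5 and 1285 CPM. Both rose (log2 fold changes 0.62 and 0.87, edgeR adjusted p = 0.0365 and 0.00682). Under a scaling to the epithelial list their log2 fold changes were -0.54 and -0.28 (edgeR adjusted p = 0.0476 and 0.271), so Actb passed in the other direction. With TMM, Actb passed no fit that left out a knockout library (adjusted p = 0.0989 to 0.111) or overexpression replicate 3 (0.0554), nor the fit with the replicate number as a block (0.0517). Acta1 fell by 2.10 (standard error 0.43, edgeR adjusted p = 0.00585), from 174 to 284 counts with knockout to 22 to 76 with overexpression. Actc1, with at most 26 counts in any library, was not tested. Acta2 over Actb was 0.0891 to 0.121 with knockout and 0.0112 to 0.0179 with overexpression. Of exact sequence shared with other genes, 1.39% of the 31-base words of Acta2 and 1.21% of those of Actg2 occur in transcripts of another gene, and 0% of the words of Acta2 occur in Actg2. For Actb and Actg1 the shares were 23.6% and 40.2%, so their counts are uncertain where reads could be split between copies.

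**Figure D3:**
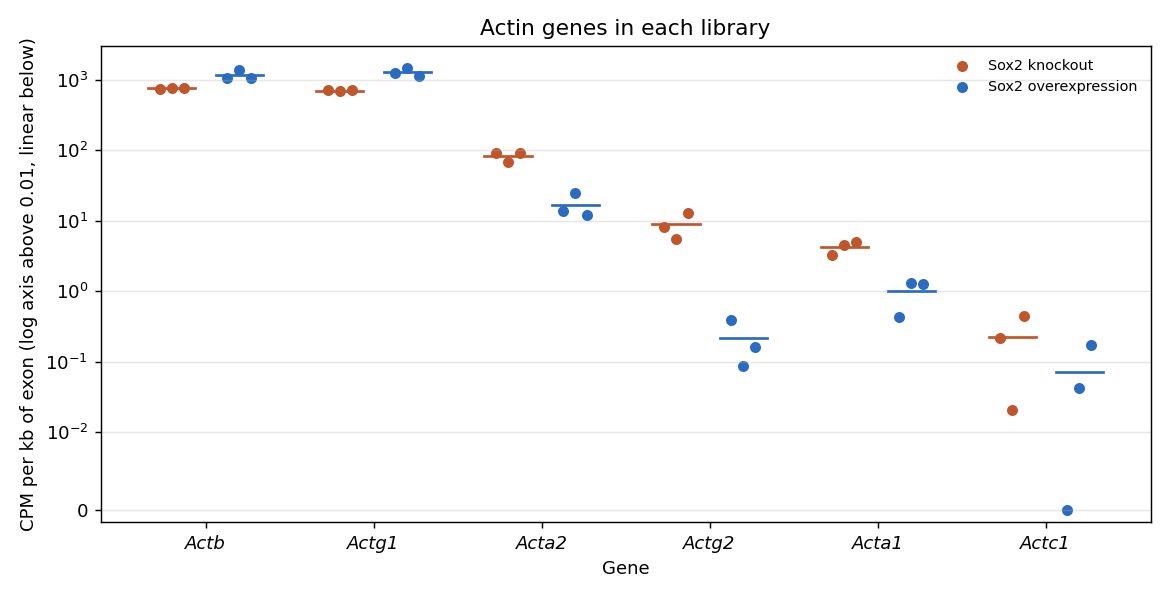
CPM per kilobase of exon for 6 actin genes (logarithmic above 0.01 and linear below) in each library, with bars at the group means. The cytoplasmic actins Actb and Actg1 stand highest in both groups, and Acta2 is the muscle isoform with most signal, at 83.0 with knockout and 16.8 with overexpression.

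Other genes of the contractile apparatus were examined as a list of 28, of which 27 were tested. Of these, 11 fell, 2 rose and 14 did not pass, beside 18.0% lower and 13.6% higher over all tested genes. The list had a median log2 fold change of -0.44, beside -4.64 for the 7 contractile genes above. The 4 with the smallest p-values among those that fell were Fhl1, Mylk, Pgm5 and Nexn. Fhl1, a LIM-domain protein of muscle, went from 52.1 ± 14.6 to 4.26 ± 0.894 CPM (SD, n = 3 each; log2 fold change -3.61, edgeR adjusted p = 2.29e-05). Mylk, the kinase that phosphorylates the myosin light chain, went from 49.6 ± 21.3 to 3.99 ± 0.533 CPM (SD, n = 3 each; log2 fold change -3.64, edgeR adjusted p = 5.44e-05), and short stretches of it overlap antisense genes with 42 counts or fewer in all. Pgm5, of the adhesion plaque, had at most 2 counts in an overexpression library and was at least 27.4-fold lower, and Nexn, an actin-binding protein, had a log2 fold change of -2.42. Among those that rose was Tagln2, the transgelin of non-muscle cells (log2 fold change 0.61, edgeR adjusted p = 0.0336). Scaled to the epithelial list, Tagln2 passed in the other direction, at -0.55 (edgeR adjusted p = 0.0422). With TMM it did not pass without any 1 knockout library (adjusted p = 0.0869 to 0.104) or without overexpression replicate 3 (0.0549). The 14 that did not pass include genes widely used by cells of other types, such as Flna, Vcl, Myl6 and Tpm2, named here after their values were seen.

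Pericyte partner genes formed a list of 20, of which 18 were tested. A total of 15 fell, 1 rose and 2 did not pass, beside 18.0% lower and 13.6% higher over all tested genes. The median log2 fold change was -5.62, and -5.15 with genes of at most 3 counts in every overexpression library set at their bound. Pdgfrb, the receptor through which vessels recruit pericytes, went from 224 CPM, 208 CPM and 186 CPM in the knockout libraries to 1.34 CPM, 1.35 CPM and 1.54 CPM with overexpression (log2 fold change -7.18, standard error 0.19, edgeR adjusted p = 1.06e-06). Anpep, an aminopeptidase of pericytes and fibroblasts, had a log2 fold change of -7.95, Ednra, an endothelin receptor, one of -6.57 and Abcc9, a subunit of the potassium channel of pericytes, one of -5.12. The gene that rose was Notch3, a Notch receptor of mural cells, from 37.7 ± 13.7 to 65.5 ± 7.42 CPM (SD, n = 3 each; log2 fold change 0.80, edgeR adjusted p = 0.0358). Notch3 did not pass without knockout replicate 2 or 3 or overexpression replicate 2 or 3 (adjusted p = 0.0714 to 0.127), and was at -0.31 when scaled to the epithelial list.

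Regulators of the mural and contractile programme were a list of 22, of which 20 were tested. Of these, 5 fell, 3 rose and 12 did not pass, beside 18.0% lower and 13.6% higher over all tested genes. The median log2 fold change was -0.019, near that of all genes. Srf, the factor that binds CArG boxes, had 109 CPM, 103 CPM and 104 CPM with knockout and 137 CPM, 201 CPM and 181.5 CPM with overexpression. Every overexpression library was above every knockout library, opposite in direction to the 9 genes that fell, with a log2 fold change of 0.72 ± 0.17 (SE; edgeR, adjusted p = 0.0122). Its adjusted p was 0.053 without knockout replicate 2, and its log2 fold change was -0.44 when scaled to the epithelial list. The SRF coactivator genes Mrtfa and Mrtfb, named after their values were seen, had log2 fold changes of -0.034 and -0.47 that did not pass (adjusted p = 0.906 and 0.0514, and 0.0405 for Mrtfb with upper-quartile normalization), and Myocd had at most 14 counts in any library and was not tested. Of the genes that fell, Heyl, a Notch target in mural cells, was at least 31.8-fold lower. Tbx18, a T-box factor of the mural lineage, fell by 5.28, Tbx2 by 2.89 and the muscle factor Mef2c by 2.71 on the log2 scale. The others that rose were Foxf1 (log2 fold change 2.11) and Foxc1 (0.94), and Foxc1 was at -0.16 under the epithelial scaling.

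**Figure D4:**
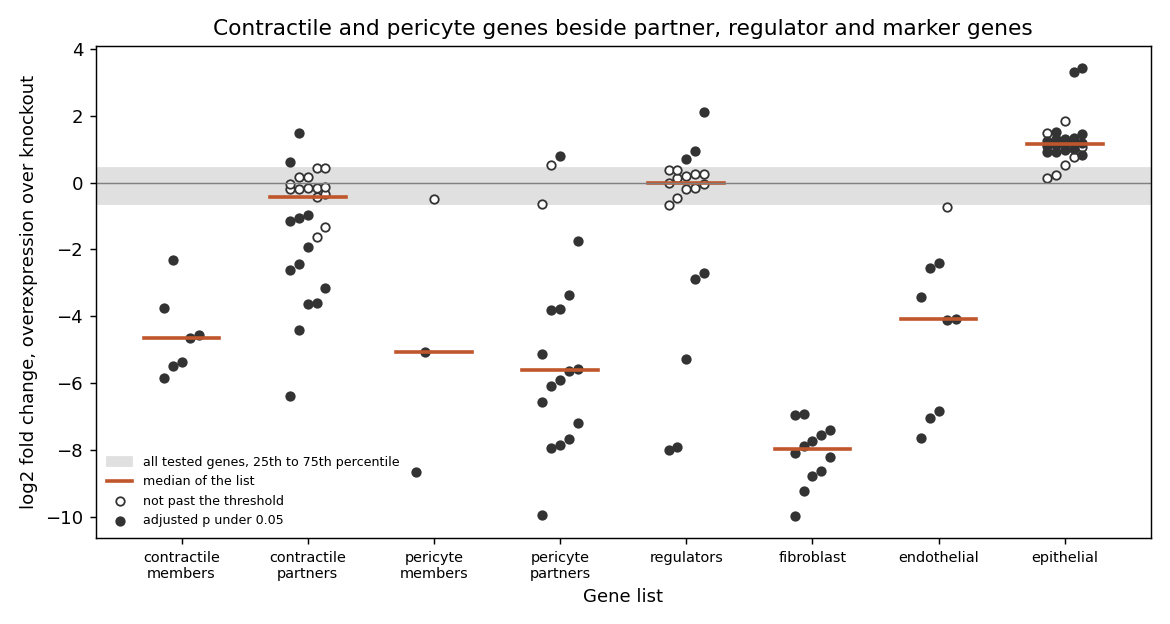
Log2 fold change of each tested gene by list, overexpression over knockout. Filled points had an adjusted p under 0.05, bars are list medians, the grey band holds the middle of all tested genes, and low points include fitted values of genes with at most 3 counts in every overexpression library. The contractile genes had a median of -4.64, their partners one of -0.44 and the fibroblast markers one of -7.99.

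Marker lists of other cells were set beside these genes. Past the threshold, 18.0% of all tested genes were lower and 13.6% higher. The fibroblast markers had a median log2 fold change of -7.99, below those of 9 of the 10 genes, Rgs5 being the exception. Acta2 over Col1a1, per kilobase, was 0.017 to 0.0317 with knockout and 0.512 to 1.42 with overexpression, with an exact permutation p of 0.1 (adjusted 0.138). Of 10 endothelial markers 9 were tested and 8 fell, with summed levels of 40.04 to 135 CPM with knockout and 14.02 to 20.7 CPM with overexpression. Most of the overexpression sum was Tek, the tested gene that did not pass, at 16.9 CPM, 9.32 CPM and 15.1 CPM in replicates 1, 2 and 3. With knockout Tek had 9.66 CPM, 24.7 CPM and 34.4 CPM. Pecam1, which fell, did not pass without overexpression replicate 2 (edgeR adjusted p = 0.0782). Tek fell past the threshold without knockout replicate 1 (edgeR adjusted p = 0.0233). Cdh5, Emcn and Cldn5 had at most 3 counts in every overexpression library. Of 10 white blood cell markers 7 were tested and 5 fell (25.1 to 122 CPM and 14.4 to 28.6 CPM, which overlap). Most of the overexpression sum was Csf1r (6.01 to 16.1 CPM) and Cd68 (6.85 to 11.2 CPM), the 2 tested genes that did not pass. Of the 5 that fell, Lyz2, Itgam and Csf3r did not pass in every fit that left out 1 library (edgeR adjusted p up to 0.0924, for Csf3r). Csf1r rose past the threshold without overexpression replicate 3 (edgeR adjusted p = 0.0177). Csf1r exon overlaps Hmgxb3 over 873 bases on the other strand. Ptprc, which fell, had 10.6 to 88.0 CPM with knockout and 0.43 to 0.54 CPM with overexpression. Cd3e, Cd79a and Adgre1 had at most 3 counts in every overexpression library, and Cd79a had 5 to 13 counts with knockout. Skeletal muscle markers summed to 40.3 to 59.2 CPM with knockout and 22.5 to 24.6 CPM with overexpression, with 3 of 5 tested lower and 1 higher. Most of each sum was Tnni2, which fell (28.3 to 33.1 CPM with knockout and 13.2 to 13.9 CPM with overexpression). Pax7, not tested, had 0 to 7 counts with knockout and 0 with overexpression. Of the Schwann cell and melanocyte markers 7 of 10 were tested and 1 fell. The part of each of these cell types in the change of the smooth muscle and pericyte genes was not tested.

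Within the knockout group, the 10 genes did not share 1 order over the libraries. Knockout replicate 2 was the lowest library for 7 of the 10 genes (Acta2, Actg2, Tagln, Cnn1, Myh11, Rgs5 and Mcam), and was the highest for the summed fibroblast markers, at 1.16 times the mean of the 3 libraries. Cspg4 was the 1 gene of the 10 that was highest there. The fibroblast sum is mostly collagen: Col1a1, Col1a2 and Col3a1 made up 91.1% to 92.2% of it. Of the 12 fibroblast markers taken singly, 7 were highest in replicate 2, 3 in replicate 3, and 2 (Pdgfra and Postn) in replicate 1. Replicate 1 was the highest for Tagln, Myl9, Des, Rgs5 and Mcam, and the lowest for the fibroblast (0.765), endothelial (0.51) and white blood cell (0.39) sums. Rgs5 was at 1.49 times its knockout mean in that library. Replicate 3 held the highest endothelial and white blood cell sums, at 1.72 and 1.90 times their means, with the highest Actg2 and Cnn1. Acta2 and Myh11 were nearly level between replicates 3 and 1, at 199.5 and 198.4 CPM for Acta2 and 10.7 and 10.57 CPM for Myh11. With 3 libraries this order is a description. Leaving out any 1 of the 6 libraries, the 9 genes stayed past the threshold, with the highest adjusted p at 0.0287, for Cnn1.

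**Figure D5:**
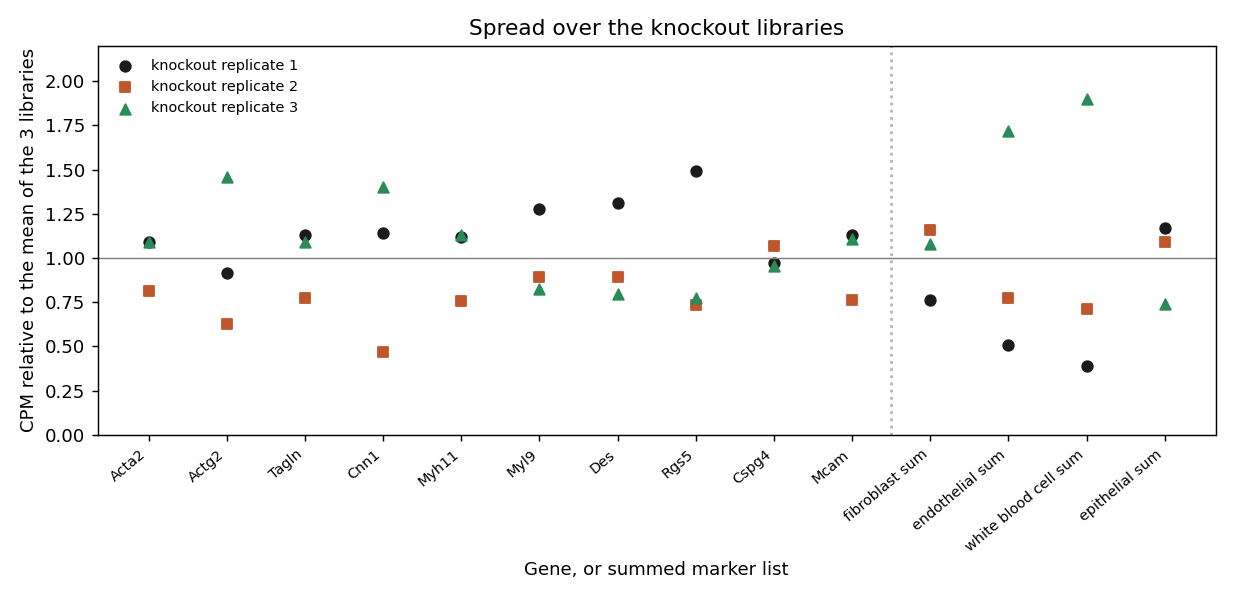
CPM in each of the 3 knockout libraries relative to their mean, for the 10 genes (left of the dotted line) and for summed marker lists (right). Replicate 2 lies lowest for 7 genes and highest for the fibroblast sum, and replicate 1 lies highest for Rgs5, at 1.49, and lowest for the endothelial sum, at 0.51.

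Nearest patterns were sought for 1 gene of each group, by the root-mean-square difference of mean-centred log2 CPM over the 6 libraries, among 9598 genes. Acta2 was most alike to Nfatc4 (difference 0.254), Ncam1 (0.312) and Synpo (0.32), whose log2 fold changes were -2.48, -2.14 and -2.05. Rgs5 had no gene as near among these. The closest were Igsf10 (0.708), Dcn (0.774) and Postn (0.861), with log2 fold changes of -8.04, -8.77 and -7.87. The limit on level left out scarcer genes that were near 0 with overexpression, such as Kcnj8 (10.8 to 0.0495 CPM). Whether any of those lies nearer to Rgs5 was not tested. Dcn and Postn are matrix genes of fibroblasts and belong to the fibroblast list.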

How the data were processed

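RNA of 6 samples was extracted with a microprep kit and made into libraries with a low-input kit, per the labels' protocols. The authors deposited raw counts per Ensembl mouse gene, as whole numbers. The submitters' processing notes name kallisto 0.44.0 and the build mm10, without their role; the annotation, the strand setting and the step to whole numbers are not given in the sources used here. Columns were matched to samples through the labels' descriptions. Of 55481 rows, 96 name no mouse gene (2.23e-05% of the counts or less in each library) and were not used. Symbols, positions and exon lengths came from GENCODE M21 (GRCm38), matched for 55144 IDs, and promoters from RefSeq.

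Genes were filtered with filterByExpr (minimum count 10, total 15), normalized with TMM and tested in edgeR 4.0.16 (R 4.3.3) by its quasi-likelihood F-test, all 6 libraries in 1 fit with group as the only term. P-values were adjusted by Benjamini-Hochberg over 18504 genes (threshold 0.05). Fold changes are overexpression over knockout. A standard error is the size of the log2 fold change over the square root of F. CPM uses TMM-normalized library sizes. With 3 counts as the limit that a count of 0 allows, the floor was 0.0758 to 0.101 CPM, which covers counting error only. Ratios used 0.5 added to each count for the test and none for the values. The code was tested on simulated counts.

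The 10 genes and the lists of partners, regulators and markers were chosen with earlier results of these data known. Genes named with values are the 10 genes, Sox2, the actin genes, the nearest patterns, and up to 4 genes with the smallest p-values in each direction of each partner and regulator list; others are said to be named after their values were seen, or serve as markers. The values of 1 gene that the rule names are not reported here. The replicate numbers were not said to pair libraries. Alternatives were RLE and upper-quartile normalization, scaling to the epithelial list, no filter on low counts, DESeq2 1.42.0 (Wald test), a replicate block, a robust dispersion fit and leaving out each library. No batch or date is in the labels.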

Additional observations from a re-analysis of the deposited data

How the results depend on the processing

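Of 130 values recomputed for the 10 genes under 13 alternatives, 129 kept their direction and their side of the threshold, and the exception was Mcam, at -1.70 (adjusted p = 0.000616) under a scaling to the epithelial list. The count of these genes that fell was 9 under every alternative except that scaling, which gave 10, and 0 rose under each. The fitted log2 fold change of Rgs5 ranged from -13.9 to -8.11, since its overexpression counts are nearly all 0, and those of the other 8 that fell from -6.97 to -2.08. Scaling to the epithelial list moved the median of all tested genes from -0.016 to -1.15 on the log2 scale, and of the genes it called 2.54% were higher and 97.5% lower, against 43.1% and 56.9%. It called 13726 genes in place of 5848, 13378 lower in place of 3329 and 348 higher in place of 2519; 25 contractile partners lower in place of 11 and 0 higher in place of 2; 0 pericyte partners higher in place of 1; and 17 regulators lower in place of 5 and 1 higher in place of 3. Acta2 was at -3.49 there. The epithelial list had a median log2 fold change of 1.14, and a scaling to it lowers all genes by a similar amount by construction. Why the list rose was not tested.

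Leaving out 1 library at a time, the count of all genes higher lay between 1446 (without knockout replicate 2) and 2599, and was 1610 without knockout replicate 3. The count of contractile partners higher lay between 1 and 2, and that of pericyte partners higher between 0 and 1. With the replicate number as a block, 5593 genes were called in place of 5848, and the block changed no call among the 10 genes. Same-numbered libraries did not deviate together across genes (correlations of deviations from the group means 0.0508, 0.0223 and -0.0399), so the numbers were not taken as pairs. Counts of 0 to 15 in Rgs5 and Cnn1 with overexpression limit how precisely the size of their fall is known.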

Other observations

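The pericyte partner genes did not share 1 order over the knockout libraries; those named here were chosen after their values were seen. Ednra was highest in knockout replicate 1, at 20.6 CPM against 13.6 and 14.6 CPM in replicates 2 and 3, as Rgs5 was. Mylk of the contractile partners had 73.2 CPM there against 43.7 and 31.9 CPM, and Notch3 53.5 CPM against 29.9 and 29.7 CPM. Kcnj8 and Abcc9, which encode the subunits of 1 potassium channel, were lowest in that library, at 6.82 and 15.2 CPM against 13.2 and 22.03 CPM in replicate 2 and 12.4 and 27.95 CPM in replicate 3. Anpep was lowest there too, at 100.3 CPM against 211 and 172 CPM. With 1 value a library these orders have no test.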
